A study of Rattus norvegicus with 6 samples.

Results

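This report describes 10 genes of oxygen sensing and of the response to low oxygen in rat liver. They are the prolyl hydroxylases Egln1, Egln2 and Egln3, the factors Hif1a and Epas1, and the targets Vegfa, Adm, Bnip3, Stc1 and Stc2. They were chosen by symbol from 14506 named genes, each through the probe set with 1 gene symbol and the highest mean over the arrays. The difference of Egln3 between the protein levels on the high sucrose high fat background was known when the set was chosen. For that reason every Egln3 value that uses those arrays is a description and carries no test.

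The livers came from 30 adult male Wistar rats, a non-mutant outbred strain, on 6 diets that crossed a high protein (HP) and a normal protein (NP) level with 3 backgrounds. HP and NP were low fat diets, HP-HS and NP-HS had much sucrose, and HP-HS-HF and NP-HS-HF had much sucrose and fat. All rats first had 10 days on the normal protein diet and then ate their own diet for 5 weeks, and they were killed in the fed state, 2 h after a meal of 87.6 kJ. Equal amounts of liver RNA from the 5 rats of a diet were pooled and put on 1 whole-transcript array, so no diet has a replicate and the differences between rats of a diet cannot be seen. Where the sample source is described as mouse, the organism and the animal protocol say rat, which is used here.

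Values are log2 levels per probe set, so a difference of 1 is a 2-fold change. The limma model took the 6 arrays together, with protein and background as its 2 factors, and a probe set passed at an adjusted p under 0.05 over the 20450 tested. Its error is the spread of a difference across levels of the other factor, and a p-value here speaks of these 6 pools and of no other source of spread. Across all probe sets, the model's typical SD for a difference of 2 arrays was 0.1325 log2, which is used below to say which neighbouring levels of a gene lie apart. Neighbours in the order of 6 levels are close by construction, so diets further apart in that order can differ by more. Array medians lay within 0.0325 log2 of each other. The 7 hepatocyte markers had mean levels of 12.13 to 13.82, near the top of the arrays' range of 2.40 to 13.92.

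Cells read oxygen through the HIF pathway. The EGLN enzymes, also called PHD enzymes, use oxygen, iron and 2-oxoglutarate to hydroxylate prolines of the HIF alpha subunits, encoded by Hif1a and Epas1. The VHL ubiquitin ligase then marks the hydroxylated subunit for destruction. When oxygen is short the subunits persist, pair with ARNT and bind a short DNA core in target genes, among them Vegfa, Bnip3 and, as negative feedback, Egln3 itself. HIF activity is largely set at the protein level, which these arrays did not measure, and liver lobules hold an oxygen gradient that falls from the portal to the central vein.

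The 250 bases before the transcription start were read for the members and for the HIF targets described below, from RefSeq on build GRCr8, where 9 of the 10 members had an entry. They are shown 5′ to 3′ on the gene's strand, ending at the base before the start, with each ACGTG or GCGTG on either strand in capitals (CACGT and CACGC are their reverse complements, and CACGTG, an E-box, holds ACGTG on both strands). The 4 genes printed are Egln3, which differed most between diets, Bnip3, the member with most matches, and P4ha1 and Ankrd37, the HIF targets whose levels followed those of Egln3 most closely. The Egln3 window is chr6:77411016-77411265 (minus strand), that of Bnip3 chr1:203154963-203155212 (minus strand), that of P4ha1 chr20:27844796-27845045 (plus strand) and that of Ankrd37 chr16:53001257-53001506 (plus strand).
Egln3: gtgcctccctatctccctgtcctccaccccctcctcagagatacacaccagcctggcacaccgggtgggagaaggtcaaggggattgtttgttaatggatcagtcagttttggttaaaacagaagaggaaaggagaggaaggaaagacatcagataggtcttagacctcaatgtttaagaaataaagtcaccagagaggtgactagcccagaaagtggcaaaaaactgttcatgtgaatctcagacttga
Bnip3: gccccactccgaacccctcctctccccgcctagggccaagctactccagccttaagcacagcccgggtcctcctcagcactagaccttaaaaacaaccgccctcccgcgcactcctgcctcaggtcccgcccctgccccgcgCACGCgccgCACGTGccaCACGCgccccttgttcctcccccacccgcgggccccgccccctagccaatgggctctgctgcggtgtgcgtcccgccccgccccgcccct
P4ha1: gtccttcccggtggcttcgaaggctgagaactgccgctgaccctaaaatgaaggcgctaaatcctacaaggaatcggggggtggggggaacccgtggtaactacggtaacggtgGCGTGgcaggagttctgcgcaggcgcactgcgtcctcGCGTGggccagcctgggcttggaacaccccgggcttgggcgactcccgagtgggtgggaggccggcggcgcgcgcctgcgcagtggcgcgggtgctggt
Ankrd37: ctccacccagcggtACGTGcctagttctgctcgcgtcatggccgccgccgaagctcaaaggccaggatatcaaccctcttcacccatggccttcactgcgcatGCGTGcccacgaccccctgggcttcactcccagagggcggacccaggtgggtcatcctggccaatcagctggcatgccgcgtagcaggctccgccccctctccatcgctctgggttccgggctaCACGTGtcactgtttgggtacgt

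These letters differ between the 4 genes. The Egln3 window holds no match. That of Bnip3 holds CACGC starting 108 bases before the start, CACGTG at 99 and a further CACGC at 90. P4ha1 has GCGTG at 136 and 99 bases before its start, and Ankrd37 has ACGTG at 236, GCGTG at 147 and CACGTG at 23. Among the other members Egln1 has a GCGTG starting 56 bases before the start. Hif1a has a CACGTG at 229 bases and, nearer to the start, ACGTG at 164 bases, while Egln2, Epas1, Vegfa, Adm and Stc2 have none in this window. Either core is common: of 33469 promoters in the table, 36.7 percent hold at least 1, 16.6 percent ACGTG, 25.9 percent GCGTG and 5.59 percent CACGTG. Among the members 3 of 9 hold either core, and among the HIF targets of the lists below 32 of 46. A match is a run of letters and does not show binding, and HIF sites often lie outside such a window.

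**Figure D1:**
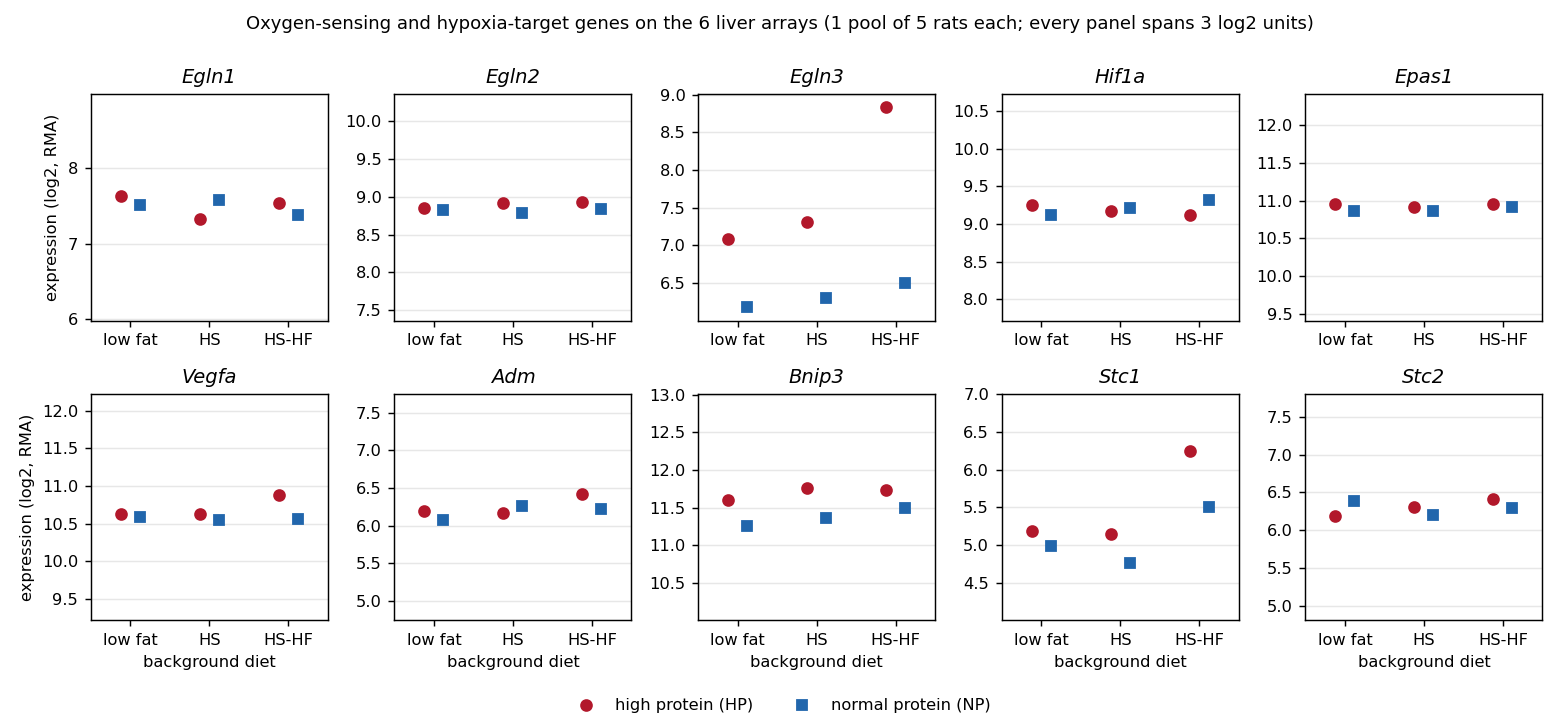
Expression of the 10 genes (log2, vertical axis, spanning 3 log2 units in every panel) by background (low fat; HS, high sucrose; HS-HF, with high fat as well), with high protein as red circles left of normal protein as blue squares. Each point is 1 array of 1 pool of 5 rats. Egln3 stands at 8.83 on HP-HS-HF and at 6.18 to 6.50 on the NP diets, Stc1 is highest on HP-HS-HF at 6.24, and the 3 HP points of Bnip3 lie above its 3 NP points.

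Egln3 was the member that differed most between diets, and the other sensor enzymes, Egln1 and Egln2, differed by at most 0.24 log2 between the protein levels of any background. Egln3 (probe set 10889923), a hydroxylase that in many cell types is induced by low oxygen, was higher with high protein in all 3 backgrounds. Its level was 7.09 on HP against 6.18 on NP, 7.31 on HP-HS against 6.30 on NP-HS, and 8.83 on HP-HS-HF against 6.50 on NP-HS-HF. The lowest HP array thus lay 0.59 log2 above the highest NP array, and the groups did not overlap. The differences were 0.91 log2 (1.88-fold) on low fat, 1.00 (2.00-fold) with sucrose and 2.33 (5.03-fold) with sucrose and fat.

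The HP-HS-HF array stood 1.52 log2 above HP-HS, the next highest for Egln3, and it decides the size of several values. Adding fat to sucrose went with a difference of 1.52 log2 (2.88-fold) at high protein and of 0.20 (1.15-fold) at normal protein. Sucrose without fat went with 0.22 at high protein and 0.12 at normal protein. In the order of its levels every neighbouring pair lay further apart than 0.1325, except NP-HS over NP. Over all 6 arrays the protein effect was 1.41 log2 ± 0.265 (SE, 3 pairs of arrays), given without a test.

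The low fat and high sucrose pairs use neither of the arrays behind the value known beforehand. From those pairs alone the protein effect of Egln3 was 0.96 log2 ± 0.092 (SE, 2 pairs), 1.94-fold, and it was higher in 2 of 2 pairs. The limma fit behind it is the model with 1 high sucrose high fat array left out. No test of Egln3 was planned on it, and the members were chosen with earlier results of these data known. This value too is therefore a description. In that fit 48 of 20450 probe sets passed, 0.235 percent, of which 37 were higher, 0.181 percent. Egln3 was the only member past the threshold there. This fit leaves 1 residual degree of freedom, and its error leaves out the background where Egln3 differed most. When any 1 of the low fat or high sucrose arrays was left out, no probe set passed for protein, Egln3 included. In the model over all 6 arrays, where its value is likewise a description, Egln3 was not among the 9 probe sets past the threshold. Leaving out any 1 array kept the effect between 0.96 and 1.67.

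Egln1 (probe set 10811951), the main oxygen sensor of most cells, had 7.63 on HP against 7.52 on NP, 7.34 on HP-HS against 7.58 on NP-HS, and 7.54 on HP-HS-HF against 7.38 on NP-HS-HF. The groups overlapped and the sign of the difference changed with the background. The fitted protein effect was 0.01 log2 ± 0.095 (SE, adjusted p = 0.992). A dimmer Egln1 probe set (10724578) ran from 5.31 to 5.52 on the HP diets and from 5.11 to 5.50 on the NP diets, and its order of diets was not that of the brighter one. Egln2 (probe set 10719958), the third family member, lay between 8.85 and 8.93 on the HP diets and between 8.79 and 8.84 on the NP diets. Every HP array was above every NP array for Egln2, but no gap between neighbouring levels reached 0.1325. Its largest protein difference, on high sucrose, was 0.138. The protein effect was 0.08 ± 0.066 (SE, adjusted p = 0.803).

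The transcripts of the HIF alpha subunits varied little over the diets. Hif1a (probe set 10885251), the subunit linked above all to glycolytic genes, had 9.25 on HP against 9.12 on NP, 9.17 on HP-HS against 9.22 on NP-HS, and 9.12 on HP-HS-HF against 9.32 on NP-HS-HF. The difference changed sign between backgrounds and was negative, -0.20, on the background where Egln3 differed most. Epas1 (probe set 10882733), which encodes HIF-2 alpha, lay between 10.91 and 10.95 on the HP diets and between 10.87 and 10.91 on the NP diets, a range of 0.09 log2. The protein effects were -0.04 ± 0.082 for Hif1a (SE, adjusted p = 0.946) and 0.06 ± 0.064 for Epas1 (SE, adjusted p = 0.881). For neither gene did any gap between neighbouring levels reach 0.1325, though the Hif1a difference of -0.20 on high sucrose high fat was larger than that.

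Among the targets, Bnip3 was higher with high protein by a similar amount in each background. Bnip3 (probe set 10927826), a receptor on the outer mitochondrial membrane that directs mitochondria to autophagy, had 11.61 on HP against 11.25 on NP, 11.76 on HP-HS against 11.36 on NP-HS, and 11.73 on HP-HS-HF against 11.49 on NP-HS-HF. The groups did not overlap, as for 7.35 percent of all probe sets with every HP array above every NP array. The gap between the Bnip3 groups was 0.11 log2, and no gap between its neighbouring levels reached 0.1325. The protein differences were larger than that, at 0.35, 0.40 and 0.24 log2 (1.28-, 1.32- and 1.18-fold). A further Bnip3 probe set (10726457) gave 0.34, 0.37 and 0.25. The protein effect was 0.33 ± 0.069 (SE, higher in 3 of 3 pairs), which did not pass (adjusted p = 0.24, and 0.233 for the further probe set). Unlike for Egln3, the Bnip3 difference on high sucrose high fat was the smallest of the 3.

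Stc1 was highest on both diets with fat. Stc1 (probe set 10781273), a secreted stanniocalcin glycoprotein, had 5.18 on HP against 4.99 on NP, 5.14 on HP-HS against 4.76 on NP-HS, and 6.24 on HP-HS-HF against 5.50 on NP-HS-HF. The protein difference was 0.19 on low fat, 0.38 with sucrose and 0.74 log2 (1.67-fold) with sucrose and fat, and the groups overlapped across backgrounds. Fat added to sucrose went with 1.10 log2 (2.14-fold) at high protein and 0.74 (1.67-fold) at normal protein. The fat effect was 0.92 ± 0.135 (SE, 2 of 2 pairs, adjusted p = 0.654) and the protein effect 0.44 ± 0.110 (SE, 3 of 3 pairs, adjusted p = 0.331), and neither passed. Leaving out 1 array moved the protein effect of Stc1 between 0.29, without either high sucrose high fat array, and 0.56. Stc1 was dim: its mean without HP-HS-HF, 5.12, lies under the level of 5.142 that a probe set needed to be tested, so it entered the test through its highest array.

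Stc2, the related stanniocalcin that in cultured cells responds to endoplasmic reticulum stress (probe set 10732644), did not follow Stc1. It had 6.19 on HP against 6.39 on NP, 6.31 on HP-HS against 6.20 on NP-HS, and 6.42 on HP-HS-HF against 6.29 on NP-HS-HF. The groups overlapped and no gap between neighbouring levels reached 0.1325, though the protein difference on low fat was larger, at -0.20. The protein effect was 0.01 ± 0.087 (SE, adjusted p = 0.987).

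The vascular targets Vegfa and Adm had their highest level on HP-HS-HF. Vegfa (probe set 10921772), the growth factor of blood vessels, had 10.63 on HP against 10.59 on NP, 10.62 on HP-HS against 10.55 on NP-HS, and 10.88 on HP-HS-HF against 10.56 on NP-HS-HF. Its HP-HS-HF array lay 0.25 above the next, while the other gaps were at most 0.03, and the protein differences were 0.04, 0.07 and 0.32 log2 by background. Adm (probe set 10709875), the vasodilator peptide adrenomedullin, lay between 6.16 and 6.42 on the HP diets and between 6.07 and 6.26 on the NP diets, with its top value on HP-HS-HF, 0.16 above the next, and its other 5 arrays spanned 0.19. The protein effects were 0.14 ± 0.081 for Vegfa (SE, adjusted p = 0.713) and 0.08 ± 0.081 for Adm (SE, adjusted p = 0.856). Leaving out 1 array moved them between 0.053 and 0.20 for Vegfa and between 0.019 and 0.17 for Adm, both lowest without either high sucrose high fat array.

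**Figure D2:**
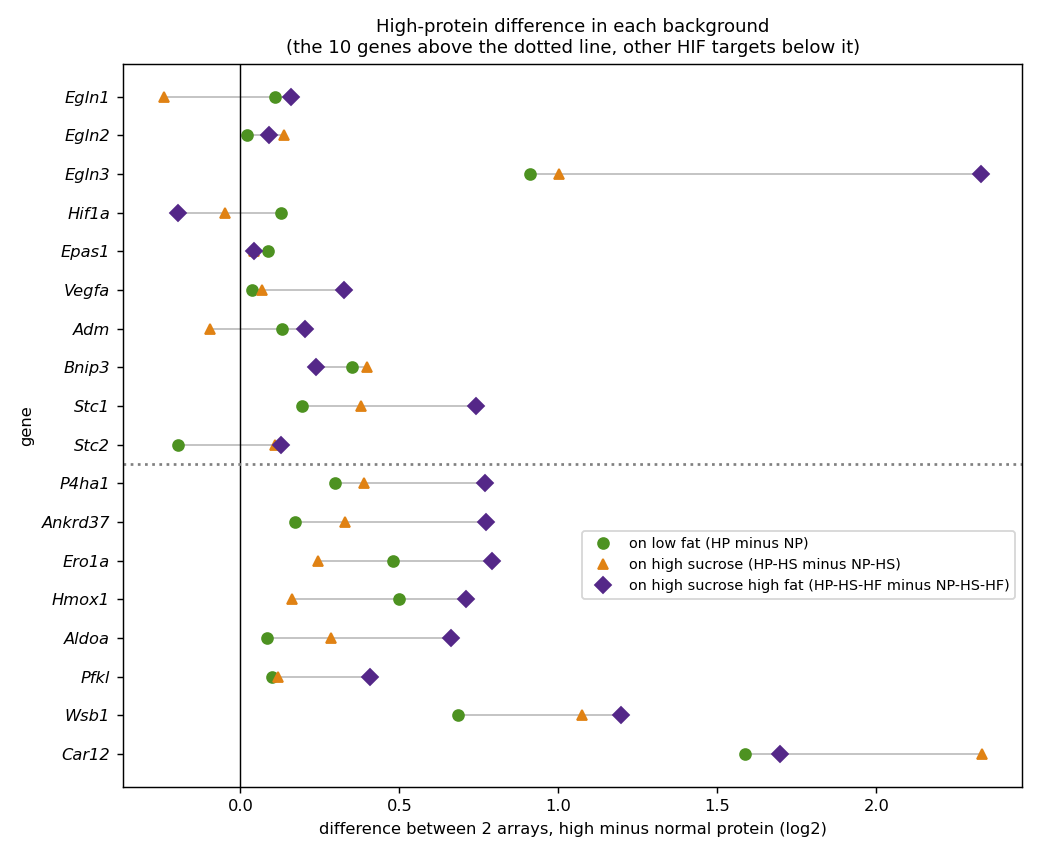
Difference between the high and the normal protein array (log2, horizontal axis) on low fat (green circles), high sucrose (orange triangles) and high sucrose high fat (purple diamonds), for the 10 genes above the dotted line and for 8 other HIF targets, picked after their values were seen, below it. Each mark is a difference of 2 arrays and grey lines join the marks of a gene. Egln3 reaches 2.33 on high sucrose high fat, against 0.91 and 1.00 on the other backgrounds, and P4ha1, Ankrd37 and Stc1 have the same order of backgrounds at smaller size.

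Counted over the set, no member passed in the model over all 6 arrays for protein, sucrose, fat, or sucrose and fat together. The counts over all probe sets were also low, with 0.0440 percent called for protein and 0 percent for each of the other effects. Egln3 was chosen on that contrast and Stc1 entered the test through its highest array. Of the other 8 members, Bnip3 had an unadjusted p under 0.05 for protein, against 8.71 percent of all probe sets. For sucrose, fat, and sucrose and fat together 0 of these 8 did, against 3.02, 4.95 and 5.18 percent. With Egln3 and Stc1 included, the members' median protein effect was 0.08 log2, with 9 of 10 above 0. Over all probe sets the median was 0.00 and 49.4 percent were above 0. Egln1 and Stc2 were each at 0.01 and changed sign when 1 array was left out. The members share the same arrays, so this count is a description and no test.

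At 1.5-fold or more, Egln3 was the 1 member past that size in the HP against NP and the HP-HS against NP-HS comparisons, where 1.38 and 1.39 percent of all probe sets were past it in either direction. On high sucrose high fat the members were Egln3 and Stc1, against 1.5 percent. For fat added to sucrose they were Egln3 and Stc1 at high protein, against 1.27 percent, and Stc1 at normal protein, against 0.934 percent. For sucrose without fat there were 0 members at either protein level, where 0.890 percent at high protein and 0.866 percent at normal protein of all probe sets were past that size. For sucrose and fat against low fat there were 2 at high protein (Egln3 and Stc1, against 1.19 percent) and 0 at normal protein (against 1.16 percent). Egln3 was chosen on the high sucrose high fat difference, and Stc1 was among the tested probe sets only through HP-HS-HF. The counts that hold Egln3 on that array, or Stc1, therefore describe these genes and test nothing about the set.

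The HP-HS-HF array was the highest of the 6 for 7 members, namely Egln2, Egln3, Epas1, Vegfa, Adm, Stc1 and Stc2, against 19.6 percent of all probe sets. Every HP array lay above every NP array for 4 members (Egln2, Egln3, Vegfa and Bnip3), against 7.35 percent. The gap between the HP and NP groups was 0.004 log2 for Egln2, 0.03 for Vegfa and 0.11 for Bnip3, each under 0.1325. Only for Egln3, at 0.59, was it larger. For Egln2, Epas1 and Stc2 the HP-HS-HF array was highest by 0.01, 0.001 and 0.03 log2, which is within the spread. Egln3 was chosen on a difference that uses that array and Stc1 entered the test through it, so neither adds to that count as evidence. Vegfa and Adm were highest there by 0.25 and 0.16 log2. Whether the protein difference itself changed with fat was asked with an interaction term added after the members' values were seen. None of the 10 members passed it, and 0.0196 percent of all probe sets did. For Egln3 this is a description, and Stc1 was among the tested probe sets only through HP-HS-HF.

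Of 14 measured genes in the rest of the HIF machinery none passed for protein, 7 were higher and 7 lower, and the median was 0.00. The largest ranges over the diets were those of Hif1an, the asparaginyl hydroxylase that blocks HIF from its coactivators, of Hif3a, of Cul2, the scaffold of the VHL ligase, and of Cited2, which competes with HIF for the coactivator p300. Their protein effects were 0.11 ± 0.082, 0.10 ± 0.064, -0.21 ± 0.097 and 0.21 ± 0.064 (SE), with adjusted p of 0.782, 0.75, 0.63 and 0.438. For 1 of the 14 the HP-HS-HF array was the highest. Vhl lay between 6.82 and 6.97 on the HP diets and between 6.86 and 7.00 on the NP diets.

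Of 20 tested glycolytic HIF targets none passed for protein, with 11 higher, 9 lower and a median of 0.02. The HP-HS-HF array was the highest for 10 of the 20. Aldoa, an aldolase, had 10.35 on HP-HS-HF against 9.69 on NP-HS-HF, and 9.96 and 10.04 against 9.87 and 9.76 on the low fat and high sucrose backgrounds. It was the glycolytic gene at 1.5-fold or more on high sucrose high fat, and its protein effect was 0.34 ± 0.114 (SE, adjusted p = 0.466). Pfkl, the liver phosphofructokinase, had differences of 0.10, 0.12 and 0.41. The glucose transporter Slc2a1 was at 0.34, -0.08 and 0.32 and the aldolase Aldoc at -0.16, 0.06 and -0.21, so the steps of glycolysis did not share 1 direction.

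Of 35 other HIF targets 29 were tested. Car12, a carbonic anhydrase of the cell surface, rose with high protein (log2 1.87 ± 0.145 SE, 3 of 3 pairs, adjusted p = 0.0281). It was the 1 gene of the list that passed. As for Egln3, every HP array of Car12 lay above every NP array, and its Pearson correlation with Egln3 was 0.70. Unlike for Egln3, its highest level, 7.73, was on HP-HS and not on HP-HS-HF (6.99). In the list 22 were higher and 7 lower, the median was 0.11, and 9 were higher at an unadjusted p under 0.05 (Ankrd37, Car12, P4ha1, Lox, Hmox1, Tfrc, Fam162a, Ero1a and Wsb1), against 4.68 percent of all probe sets. The list's median difference was 0.07 on low fat, 0.10 with sucrose and 0.19 with sucrose and fat. At 1.5-fold or more higher there were 3, 2 and 7 genes in that order of backgrounds, against 0.738, 0.870 and 0.836 percent of all probe sets. HP-HS-HF was the highest array for 16 of the 29. No probe set of the table, Car12 included, passed for protein when any 1 of the low fat or high sucrose arrays was left out.

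The 3 HIF targets whose levels correlated most with those of Egln3 over the arrays were P4ha1, Ankrd37 and Ero1a, named after their values were seen. P4ha1, the catalytic subunit of the collagen prolyl 4-hydroxylase, had 9.33 on HP against 9.04 on NP, 9.47 on HP-HS against 9.08 on NP-HS, and 9.94 on HP-HS-HF against 9.17 on NP-HS-HF. Ankrd37, a small ankyrin repeat protein, had 6.66 against 6.49, 6.80 against 6.47, and 7.27 against 6.50 for the same HP and NP pairs. Both had their 3 HP arrays above their 3 NP arrays and a gap at HP-HS-HF. Ero1a, the oxidase that drives disulfide formation in the endoplasmic reticulum, had 9.72 against 9.24, 9.55 against 9.31, and 10.18 against 9.39. The protein effects were 0.49 ± 0.103, 0.42 ± 0.119 and 0.50 ± 0.109 (SE) for P4ha1, Ankrd37 and Ero1a, with adjusted p of 0.244, 0.39 and 0.252.

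Other targets in the list had orders of their own. Wsb1, a ubiquitin ligase adaptor, had 9.38, 9.66 and 9.72 on the HP diets against 8.69, 8.59 and 8.52 on the NP diets, with a protein effect of 0.99 ± 0.107 (SE, adjusted p = 0.0756) and little difference with fat (0.06 at high and -0.07 at normal protein). Angptl4, a lipoprotein lipase inhibitor that is also a target of PPAR factors, was lower with high protein on low fat (-0.25) and high sucrose (-0.39) and higher on high sucrose high fat (0.32). Adding fat went with 1.02 at high and 0.31 at normal protein for Angptl4. Lox, the lysyl oxidase that crosslinks collagen, had 8.23 on HP-HS-HF and 7.55 on NP-HS-HF, its highest levels, and 5.41 on NP, its lowest. Bnip3l, the closest relative of Bnip3, ranged from 10.92 to 11.06 over all diets and had a protein effect of -0.03 ± 0.066 (SE, adjusted p = 0.947).

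**Figure D3:**
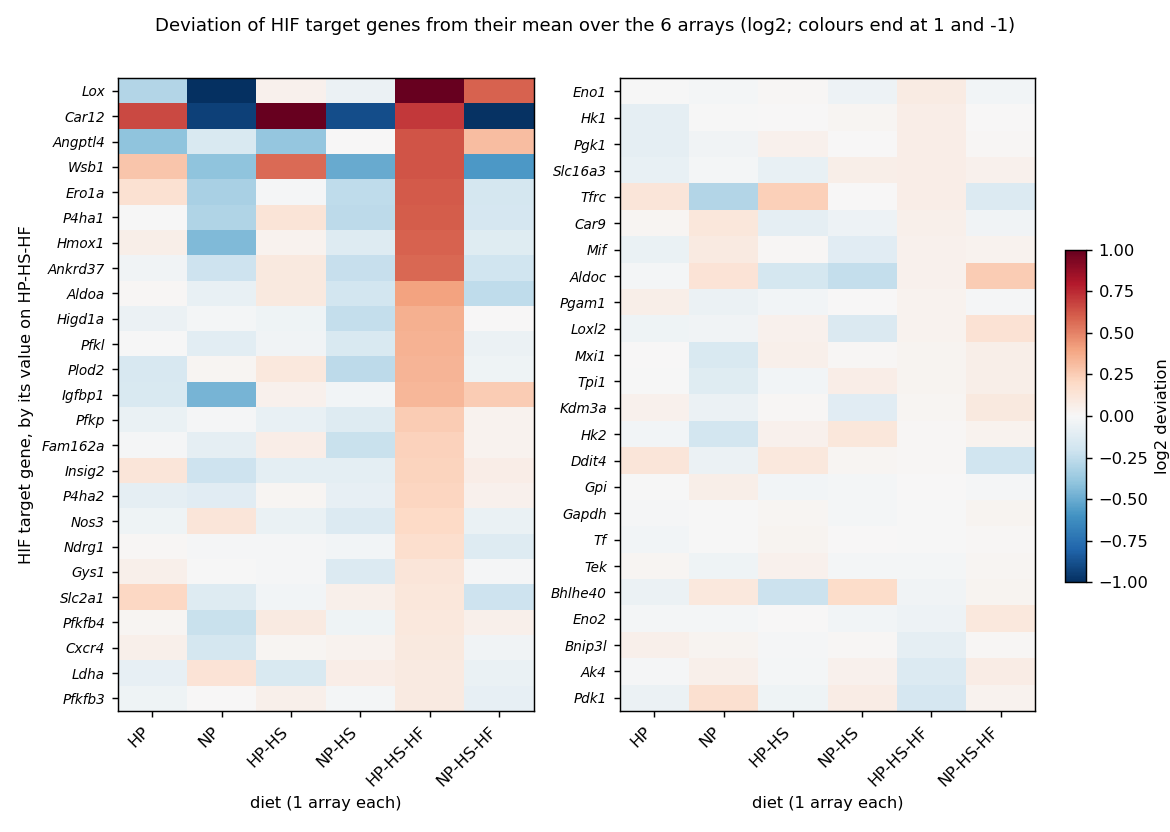
Each of the 49 tested HIF targets (rows, both lists) on the 6 arrays (columns, each HP diet left of its NP diet), coloured by the log2 deviation from the gene's mean over the arrays, with colours ending at 1 and -1. Genes are ordered by their value on HP-HS-HF, from high at the top left to low at the bottom right. The left block is red in the HP-HS-HF column, and most glycolytic enzymes in the right block are pale throughout.

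Across the 6 arrays, 39 of the 49 tested HIF targets of both lists had a positive Pearson correlation with Egln3, with a median of 0.56, where 50.1 percent of all probe sets had one and the median was 0.00. For 7 of the 49 it was over 0.9 (P4ha1, Ankrd37, Ero1a, Eno1, Pfkl, Hmox1 and Aldoa), against 1.43 percent of all probe sets. Among the members it was 0.95 for Vegfa, 0.86 for Stc1, 0.85 for Egln2, 0.81 for Bnip3, 0.78 for Epas1 and Adm, 0.46 for Stc2, 0.04 for Egln1 and -0.41 for Hif1a. These values rest on 6 points from shared arrays and lean on the HP-HS-HF array, so they describe these arrays only.

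Of 15 genes of VEGF and adrenomedullin signalling none passed for protein and the median was 0.03. Flt1, a VEGF receptor, had 8.93 on HP-HS-HF against 8.64 on NP-HS-HF, with differences of 0.14 and -0.02 on low fat and high sucrose. Ackr3, an atypical receptor that binds adrenomedullin, had 7.82 on HP-HS-HF against 7.36 on NP-HS-HF and at most 7.25 on the 4 diets without fat. Vegfb was at 0.12, -0.01 and 0.32, and Ramp3, a coreceptor for adrenomedullin, at -0.33, -0.15 and -0.06. Of 14 partners of Bnip3 in mitophagy none passed, and the median was -0.02. The autophagy protein Map1lc3a differed by -0.06, 0.20 and 0.51 by background, Gabarapl1 by 0.22, 0.13 and 0.11, and the apoptosis inhibitors Bcl2 and Bcl2l1 by 0.31, 0.18 and 0.07 and by -0.02, -0.04 and -0.28.

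The genes most like Egln3 over the 6 arrays, among 101 named genes with a range of at least 1 log2, were the neutral amino acid transporter Slc1a4 (Pearson 0.98), the transcription factor Tbx3 (0.97), the glycine cleavage enzyme Gldc (0.97), the heme oxygenase Hmox1 (0.96), the signalling regulator Rgs4 (0.96) and the alcohol dehydrogenase Adh6 (0.96). Slc1a4 had 7.76 on HP against 6.61 on NP, 7.75 on HP-HS against 6.69 on NP-HS, and 9.01 on HP-HS-HF against 6.63 on NP-HS-HF. Its differences of 1.15, 1.06 and 2.38 log2 stood beside 0.91, 1.00 and 2.33 for Egln3. Without the HP-HS-HF array the correlations were 0.96 for Slc1a4, 0.89 for Tbx3, 0.92 for Gldc, 0.84 for Hmox1, 0.78 for Rgs4 and 0.97 for Adh6. Stc1 had other companions, namely the small GTPase Rab30 (0.95), the ephrin receptor Epha2 (0.93), Tor3a (0.92), the pyruvate dehydrogenase kinase Pdk4 (0.92), the small heat shock protein Hspb1 (0.91) and the phosphatase Ppm1k (0.90). Pdk4 had 11.29 on HP-HS-HF against 10.27 on NP-HS-HF, and without HP-HS-HF its correlation with Stc1 was 0.57.

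**Figure D4:**
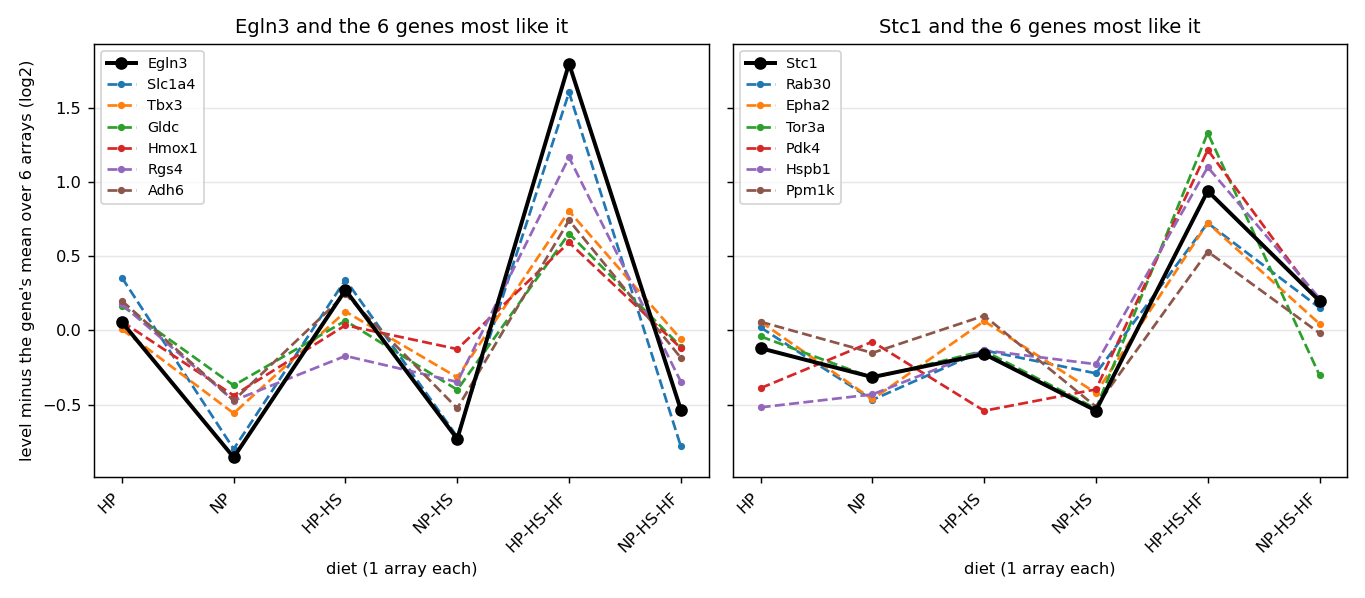
Levels of Egln3 (left) and Stc1 (right) as black solid lines, each with the 6 genes of highest Pearson correlation over the 6 arrays among named genes with a range of at least 1 log2 as dashed lines, plotted as log2 level minus the gene's own mean. Each point is 1 array, each HP diet stands left of its NP diet, and the lines only join the points of a gene. Egln3, Slc1a4 and Stc1 are higher with high protein on every background. These genes and the companions of Stc1 all have their peak on HP-HS-HF. Of those companions, Pdk4 and Hspb1 are lower with high protein on low fat.

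Slc1a4 and Tbx3 belong to a list of 15 measured genes of pericentral hepatocytes, the cells at the oxygen-poor end of the lobule. None of the 15 passed for protein, 13 were higher and 2 lower, the median was 0.09, and HP-HS-HF was highest for 7. The 14 periportal genes, from the oxygen-rich end, also had a median of 0.09, with none past the test, 10 higher and 4 lower, and HP-HS-HF highest for 3. Of the pericentral list the glutamate transporter Slc1a2 differed by 1.10, 1.02 and 0.68 by background (adjusted p = 0.064) and the ammonium transporter Rhbg by 0.44, 0.31 and 0.21 (adjusted p = 0.285). Of the periportal list the serine dehydratase Sds differed by 0.59, 0.64 and 0.27, the gluconeogenic Pck1 by 0.34, 0.42 and 0.31, the urea cycle enzyme Asl by 0.39, 0.58 and 0.49, and the lipid droplet protein Hsd17b13 by -0.17, -0.16 and -0.57. Their adjusted p lay between 0.118 and 0.457.

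Markers of other liver cells moved with the diets by less than Egln3. The summed log2 level of 10 macrophage markers was 84.6 on HP, 85.3 on HP-HS and 83.3 on HP-HS-HF, against 82.2 on NP, 83.0 on NP-HS and 81.4 on NP-HS-HF, with median differences of 0.20, 0.22 and 0.21 by background. That of 7 measured bile duct markers was 50.04, 50.2 and 51.1 on the HP diets, against 49.7, 49.5 and 49.6 on the NP diets, with median differences of 0.07, 0.07 and 0.31. Of these, Krt18 and Krt8 had means of 10.93 and 9.84, and Krt19, the next, had 6.30. On high sucrose high fat Krt18, Krt8, Krt19, Epcam, Spp1 and Krt7 differed by 0.44, 0.20, 0.45, 0.37, 0.31 and 0.08. Cftr, under the test filter at a mean of 4.94, differed by -0.35. A sum over genes of such unlike level does not measure bile duct RNA. Hepatocyte markers had median differences of -0.01, -0.01 and -0.03, endothelial markers of 0.11, 0.06 and -0.01, and stellate cell markers of 0.02, 0.08 and 0.07. Red cell markers had 0.29, -0.18 and -0.01, and markers of adipose tissue and pancreas -0.03, -0.03 and 0.02. In pooled liver RNA a change in the number of a cell type and a change in RNA per cell cannot be told apart. The part of bile duct and macrophage RNA in the values of Egln3, Stc1 and Bnip3 was not tested.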

How the data were processed

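Liver RNA of 30 rats on 6 diets was pooled by diet, 5 rats each (1500 ng per rat, RNA integrity number of at least 7.0), and run on 6 whole-transcript arrays, per the labels' protocols. The deposited values are log2 levels for which the submitters' processing notes name RMA, a robust multi-array average, with no version or settings. Of 29214 probe sets, 15310 had 1 symbol in the platform annotation, and 0 columns were left unused. Probe sets with a mean above the 30th percentile (log2 5.142) were tested with limma 3.58.1 in R 4.3.3, in an additive model with 2 residual degrees of freedom (prior 4.37 degrees of freedom), with Benjamini-Hochberg adjustment over all 20450. The model was tested on simulated data.

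The members, the 8 gene lists and the 7 marker lists were chosen with earlier results of these data known. Named were all members, list genes past the test and up to 4 per list with the largest range over the diets, and the 6 genes most like each member whose range was at least 1. Alternatives changed the filter, the normalization, the prior, the choice of probe set, the fold and the arrays used, and the number of arrays limits the precision. Promoter sequences are RefSeq's, build GRCr8.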

Additional observations from a re-analysis of the deposited data

How the results depend on the processing

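The additive model compares the protein levels within each background, and no replicate number pairs arrays beyond that. Over the alternatives for which members were counted, 79 counts stayed within 1.5 times their value and 11 did not. Of the single-gene values 460 kept direction and side of the threshold, 37 changed direction and 5 became stronger. The count of members past the test ranged from 0 to 1 for protein, 0 to 2 for fat and 0 to 1 for sucrose and fat when 1 array was left out. For protein the member was Egln3 without either high sucrose high fat array (0.96, 0.235 percent of all probe sets called), where no test of it was planned. Without NP-HS-HF there were 2 members for fat (0.0831 percent called) and 1 for sucrose and fat (0.0587 percent called). Those last counts test nothing, since they rest on the HP-HS-HF array, which holds the known Egln3 value and through which Stc1, the other member, entered the test. With a fold of 1.2 in place of 1.5 the members past it were 2 for HP against NP (12.4 percent of all probe sets), 3 for HP-HS against NP-HS (11.9 percent), 1 for HP-HS against HP (9.03 percent) and 2 for NP-HS-HF against NP (11.7 percent). With a fold of 2 they were 0 for HP against NP (0.205 percent), 1 for HP-HS-HF against NP-HS-HF (0.254 percent) and 0 for NP-HS-HF against NP-HS (0.103 percent). The 1 member was Egln3, chosen on that difference. Over all probe sets the protein effect gave 9 calls, against 3 with no filter, 13 at the 50th percentile, 7 after quantile normalization, 16 with arrays centred on their medians, 57 with a trended robust prior, 0 without any 1 low fat or high sucrose array and 48 without a high sucrose high fat array; the cause was not tested.

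Some effects changed sign when 1 array was left out. For protein the range was -0.067 to 0.13 for Egln1, -0.12 to 0.039 for Hif1a and -0.044 to 0.12 for Stc2. For sucrose the range was -0.31 to 0.068 for Egln1, -0.028 to 0.064 for Egln2, -0.21 to 0.55 for Egln3, -0.12 to 0.13 for Hif1a, -0.042 to 0.001 for Epas1, -0.10 to 0.058 for Vegfa, -0.057 to 0.21 for Adm, -0.32 to 0.051 for Stc1 and -0.19 to 0.12 for Stc2. For fat the range was -0.18 to 0.19 for Egln1, -0.0071 to 0.075 for Egln2, -0.091 to 0.14 for Hif1a, -0.0053 to 0.27 for Vegfa, -0.023 to 0.24 for Adm and -0.018 to 0.12 for Bnip3. For sucrose and fat the range was -0.090 to 0.16 for Hif1a, -0.027 to 0.24 for Vegfa and -0.096 to 0.22 for Stc2. With the mean of all probe sets of a symbol the fat effect of Egln1 was -0.15.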

Other observations

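Targets of the integrated stress response did not share 1 direction with high protein. That response is the amino acid and endoplasmic reticulum stress program, which shares targets with the HIF pathway. Of 17 tested genes none passed for protein, 8 were higher and 9 lower, and the median was -0.02. For sucrose and fat against low fat none passed, 4 were higher and 13 lower, with a median of -0.07 (0.00 over all probe sets). At normal protein 14 were lower in that comparison and 3 higher (median -0.18). At high protein 9 were lower and 8 higher (median -0.02). The hormone Fgf21 had 6.41 on HP against 7.13 on NP, 6.37 on HP-HS against 6.89 on NP-HS, and 6.50 on HP-HS-HF against 6.73 on NP-HS-HF, with a protein effect of -0.49 ± 0.101 (SE, lower in 3 of 3 pairs, adjusted p = 0.233). The chromatin protein Nupr1 differed by -0.54, -0.33 and -0.82 log2 by background (-0.56 ± 0.102 SE, adjusted p = 0.169), with its lowest level, 9.29, on HP-HS-HF, the array where Egln3 was highest. The stress factor Atf3 differed by 0.18, -0.03 and 0.83 by background, and the liver factor Atf5 by -0.60, -0.11 and 0.03.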
